A study of Saccharomyces cerevisiae with 12 samples.

Results

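Medium in which a strain lacking BUR2 had already grown was given to wild-type yeast, and the RNA of those cells was set against RNA from wild-type yeast that received the used medium of a wild-type strain. The comparison rested on 4 of the 12 arrays of the series, chosen by the source name in the labels, 2 for bur2-conditioned medium (bur2 medium) and 2 for wild-type-conditioned medium (wild-type medium), and was described over all 6388 gene probes. The sampled cells were BY4742, a haploid laboratory strain of mating type alpha, and carried an intact BUR2 on all 4 arrays. The donor strain, deleted for BUR2 or wild type, had first completed 2 doublings in synthetic complete medium (2% glucose), and the wild-type cells then completed 2 doublings in what was left. The arrays thus differed by label only in the donor of the medium. They were part of the second of 2 sets in the series, which also held 2 arrays for medium used by a strain lacking CHO2 (cho2 medium). The question was whether a slow-growing mutant leaves its surroundings changed enough to alter expression in healthy cells.

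On each array the sample was labelled with 1 dye and the other dye marked a wild-type reference RNA common to the series. By the labels of each array, array 1 of each medium carried the sample in Cy3 and array 2 in Cy5, so the arrays of like number also shared a dye. The general design text of the series names the opposite dye for the sample in the first hybridisation. The array labels were followed, and a reversal of both arrays would turn the sign of every difference below. With the labels' dyes, the arrays correlated with their deposited normalised columns at r = 0.913 to 0.971, and the 2 arrays of a medium correlated positively. Levels below are log2 ratios of sample over reference, and a difference is the mean of the bur2 medium arrays minus that of the wild-type medium arrays, ± SE, with n = 2 arrays per medium throughout. The sources did not settle whether the 2 arrays of a medium came from separate cultures, so the errors may in part be technical. The cultures were measured in bulk, and a change in all cells could not be told from a larger one in some of them.

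BUR2 encodes the cyclin of the Bur1 kinase, which acts on RNA polymerase II and its elongation factors and is needed for normal growth. Conditioned medium is short of what the donor consumed and holds what it released. Yeast reads its surroundings through dedicated regulators: Zap1 turns on zinc uptake genes when zinc is scarce, Aft1 does so for iron, a thiamine regulon answers to vitamin supply, and the pheromone pathway answers to the opposite mating type. Ty1 is an abundant retrotransposon of the yeast genome, present in many near-identical copies, whose RNA encodes the Gag shell protein and, by frameshift, the enzymes that copy it.

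The mating type genes read as labelled, with 1 partial exception. The alpha-specific genes MF(ALPHA)1, MF(ALPHA)2, STE3 and SAG1 read between 35.5 and 237 times the local background on the 4 arrays, while the a-specific genes MFA1, MFA2, STE6, BAR1 and AGA2 did not exceed 1.75 times background and STE2, the receptor gene for alpha pheromone, read 1.92 to 2.36 times. Of the marker genes with lesions in BY4742, LEU2 and URA3 read 1.03 to 1.18 times background, LYS2 1.83 to 2.20 times and HIS3 2.92 to 3.55 times, so the last pair gave no clear check of the strain. BUR2 read 5.37 to 8.38 times background, with levels of 0.18 and 0.50 in bur2 medium against 0.28 and 0.33 in wild-type medium, which overlapped (0.034 ± 0.073). Median sample signals were 190 to 264 over backgrounds of 44 to 50, 78.6 to 81.3% of probes exceeded 2 times background, and duplicate spots differed by a median of 0.025 to 0.028 on the log2 scale. Precision is limited by the number of arrays.

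No gene passed the test by itself. Limma called 0 of 6388 probes (0.00%) at an adjusted p under 0.05, and the smallest adjusted p was 0.491. Before adjustment 242 probes (3.79%) had a p under 0.05, of which 160 were higher (2.50%) and 82 lower (1.28%) in bur2 medium, where chance alone gives 319.4. Both bur2 arrays lay above both wild-type arrays for 628 probes (9.83%) and below them for 589 (9.22%). Other fits of the same arrays did make calls. Limma called 45 probes with the duplicate spots kept apart, all 45 higher, and 59 with only the 4 arrays in the fit, 56 of them higher. That second fit had 1 residual degree of freedom. The fit of duplicate spots took the 2 spots of a probe on an array as further measurements, with a single correlation of 0.694 for all probes. Its smaller adjusted p values, here and below, therefore rest in part on repeat spots of the same arrays and not on more arrays. The probes grouped next with Ty1 gag, most of them by their levels on these arrays alone, made up 29 of the 45 and 30 of the 59. Of the 45, 41 were also among the 59.

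A group of 30 probes around 3 named gag reading frames of Ty1 (the Ty1 gag group) was higher in bur2 medium. Of the 30, 27 were admitted because their levels, on these 4 arrays among others, lay close to those of the 3. Like differences across the 30 therefore follow from how the group was formed. Across the 30, the median level was 1.12 and 1.34 on the bur2 arrays against 0.80 and 0.75 on the wild-type arrays. On all 30 probes both bur2 arrays lay above both wild-type arrays. The differences ran from 0.39 to 0.50 with a median of 0.446, or 1.36-fold, and SEs of 0.082 to 0.121. The like-dye pairs gave medians of 0.31 (array 1) and 0.59 (array 2). Adjusted p values were 0.491 to 0.813, so none of the 30 was called, although their unadjusted p values of 0.000578 to 0.0084 made up 23 of the 30 smallest of the whole table. All 30 were called when only the 4 arrays were fitted (adjusted p 0.00262 to 0.0296) and 29 with the duplicate spots kept apart (0.000369 to 0.0988), whereas with 1 array left out they were called only without bur2 array 1 (24 of 30, median 0.62). Without bur2 array 2 the median was 0.27.

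The group was gathered after its values had been seen. Its p values, the likeness of its differences and its correlations are therefore a description. It holds 3 named reading frames, YPR158W-A, YDR210C-C and YMR046C, each 1323 bases long in the RefSeq gene table, a length that 39 genes of that table share. The other 27 probes carry no gene symbol and were added because their levels over all 12 arrays lay within a root mean square distance of 0.15 of the mean of the 3 named probes. The farthest probe inside stood at 0.0988 and the nearest outside, the agglutinin subunit gene AGA1, at 0.238. The correlation of each member with that mean was at least 0.962 over 12 arrays that share 1 reference. Copies of Ty1 are near-identical in sequence, and probe sequences were not used here, so the 30 probes cannot be counted as 30 transcripts, and the 27 are tied to Ty1 by their levels only.

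The 3 named frames were as follows. YPR158W-A stood at 0.96 and 1.33 in bur2 medium against 0.70 and 0.81 in wild-type medium, a difference of 0.39 ± 0.082. YDR210C-C stood at 1.16 and 1.31 against 0.77 and 0.76 (0.47 ± 0.099). YMR046C stood at 1.09 and 1.26 against 0.79 and 0.65 (0.45 ± 0.097), while a second probe under that name was not above background. In each of the 3, the lower bur2 array exceeded the higher wild-type array. These probes were bright, with YPR158W-A at a median of 44.9 times background. The raw sample signal of the group had medians of 4419 and 7726 on the bur2 arrays against 3371 and 5070 on the wild-type arrays. YDR210C-C and YMR046C were higher in raw signal in both like-dye pairs. YPR158W-A was not on array 1, with a sample signal of 1678 against 1803 and a reference signal of 891 against 1610. The remaining 1035 probes without a symbol had a median difference of 0.0041. At an unadjusted limma p under 0.05, 39 of them were higher and 6 lower, against 2.50% and 1.28% over all probes. Some were also called with the duplicate spots kept apart.

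**Figure D1:**
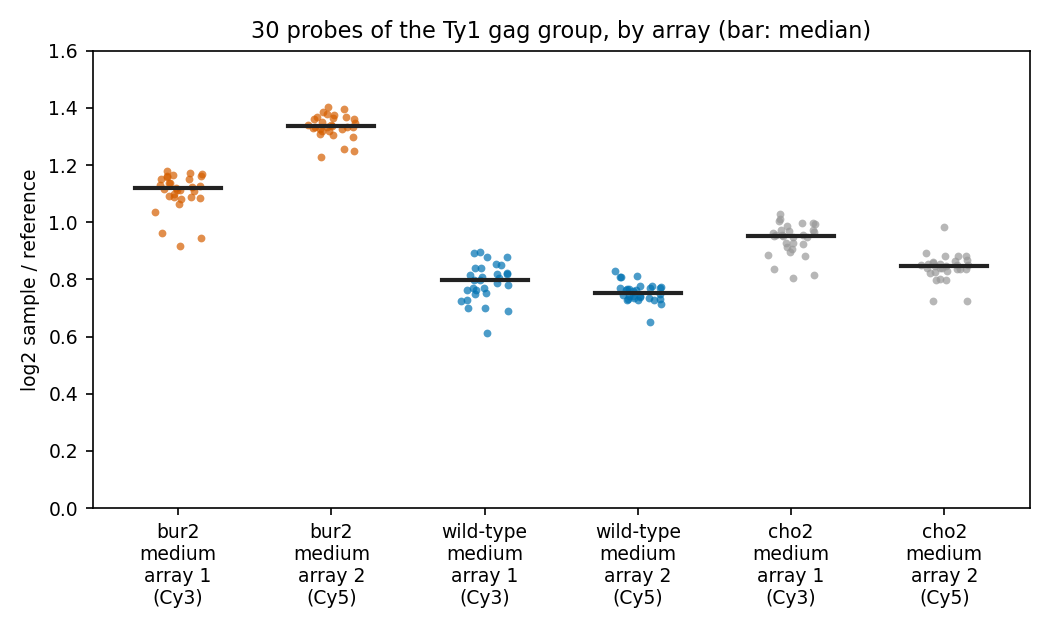
Log2 sample over reference of the 30 probes of the Ty1 gag group on the 6 arrays of the second set, with a point per probe and a bar at the median. For each probe both bur2 points lie above both wild-type points, and the medians of cho2 medium (0.95 and 0.85) lie between.

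The level of the Ty1 gag group also differed between the 2 sets of the series. In cho2 medium the 30 probes had medians of 0.95 and 0.85, and the 6 arrays of the first set, wild-type medium included, had medians of 0.33 to 0.59. Wild-type medium itself stood at medians of 0.54 and 0.34 in the first set against 0.80 and 0.75 in the second. The cause of this shift between sets was not tested. The bur2 arrays lay above both cho2 arrays on all 30 probes, and on 15.5% of all probes. The members were chosen by their levels on these same arrays, so their count is not independent of that choice. The median difference from cho2 medium was 0.318 (adjusted p 0.519 to 0.578), and cho2 medium exceeded wild-type medium by a median of 0.111. The media of bur2 and cho2 share their wild-type control, so their differences from it are not independent.

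Other probes for retrotransposon reading frames, Gag-Pol frames of Ty1 and Ty2 among them, stood higher with a smaller median. All 19 probes had a positive difference, with a median of 0.095, against 48.7% positive over all probes. They included YDR261W-B more than once and a second probe of YMR046C, a named frame of the Ty1 gag group. Of the 19, 6 were higher at an unadjusted p under 0.05 (2.50% over all probes), 5 did not overlap (9.83%), and 16 were above background on all 4 arrays. The second YMR046C probe was among the 6, though it was not above background. YDR170W-A read 1.18 and 0.89 in bur2 medium against 0.94 and 0.30 in wild-type medium (0.42 ± 0.11) and was called with duplicate spots kept apart and with 4 arrays. Its second bur2 array lay below the first wild-type array, while both like-dye pairs were higher. Its difference lay within the range of the Ty1 gag group (0.39 to 0.50). YNL284C-A read 0.65 and 0.51 against 0.52 and 0.039 (0.30 ± 0.11), and its groups overlapped. YGR161C-D read 0.64 and 0.45 against 0.54 and 0.10 (0.23 ± 0.071), and YPR158C-D read 0.65 and 0.42 against 0.48 and 0.18 (0.20 ± 0.057). In both, the first array of each medium lay above the second, and the groups overlapped. YDR210C-D differed by 0.18 ± 0.049 and turned to -0.15 when loess was run per print tip. The Ty3 frames YGR109W-A and YGR109W-B differed by 0.0275 and 0.075.

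The largest difference of the table was that of a zinc gene. ZRT1, the high-affinity zinc transporter gene of the plasma membrane, stood at 3.44 and 0.60 in bur2 medium against -0.021 and 0.033 in wild-type medium and 0.039 and -0.077 in cho2 medium. Both bur2 arrays were above these 4 others, and they also lay far from each other. The first like-dye pair was 3.46 apart and the second 0.57. ZRT1 also varied between the 2 wild-type medium arrays of the first set, at -0.65 and 0.27. On bur2 array 1 the duplicate spots read 5070 and 5154 in the sample and 481 and 503 in the reference, and on bur2 array 2 they read 627 and 672 against 260 and 271. On the wild-type arrays of the second set the sample read 356 and 342 against 481 and 451, and 483 and 509 against 299 and 304. The duplicates thus agreed on each array (3.46 and 3.42, then 0.59 and 0.62), and the spread lay between arrays. The difference of 2.02 ± 0.71 had a 95% interval of 0.40 to 3.63 and an adjusted p of 0.999. ZRT1 was called only where bur2 array 2 was left out (3.51, adjusted p 0.0262) or the duplicate spots were kept apart (0.00908).

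Among the other zinc genes, RTC4 and ZRT2 were well apart in both like-dye pairs. RTC4, taken here as a Zap1 target, stood at 0.75 and 0.91 against 0.46 and 0.46, and at 0.64 and 0.58 in cho2 medium. Its bur2 arrays lay above all others and the difference was 0.37 ± 0.069 (adjusted p 0.491). It was called with the duplicate spots kept apart and with 4 arrays. ZRT2, the low-affinity transporter gene, stood at 0.68 and 0.47 against 0.14 and 0.26, a difference of 0.38 ± 0.12. Its groups did not overlap, and it was called in the same fits of duplicate spots and of 4 arrays.

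Further zinc genes stood well above wild-type medium on bur2 array 1 alone. ZAP1, which encodes the zinc-sensing activator and is its own target, stood at 0.87 and -0.22 against 0.13 and -0.040. ZPS1, a Zap1 target that encodes a putative cell surface protein, stood at 0.53 and -0.12 against -0.063 and -0.081. ZRT3, the vacuolar zinc exporter gene, stood at 0.23 and -0.11 against -0.18 and -0.12. In each case the first like-dye pair was well apart (0.74, 0.59 and 0.40) and the second was not (-0.18, -0.039 and 0.0062). Without bur2 array 1 the differences of ZAP1 and ZPS1 turned to -0.16 and -0.054.

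The list of 21 zinc genes gathered as the Zap1 regulon, ZAP1 included, had 16 members higher (48.7% over all probes). Not every member is an established Zap1 target. The list median was 0.079, with 0.090 in the first pair and 0.024 in the second. Of the 21, 3 were higher at an unadjusted p under 0.05 (2.50% over all probes), 7 did not overlap above (9.83%) and 2 below (9.22%), and 19 were above background on all 4 arrays. Outside the 6 genes given, the 13 measured members ranged from -0.067 to 0.13. They included the low-affinity metal transporter gene FET4 (0.096 ± 0.091), the anchor synthesis gene MCD4 (0.13 ± 0.068), the peroxiredoxin gene TSA1 (0.088), the vacuolar zinc importer gene ZRC1 (-0.034) and the membrane receptor homologue IZH4 (-0.067). VEL1 and YOR387C were not above background in either medium. ADH3 and ADH1, alcohol dehydrogenase genes that zinc shortage lowers, differed by -0.085 ± 0.034 and 0.032 ± 0.12.

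**Figure D2:**
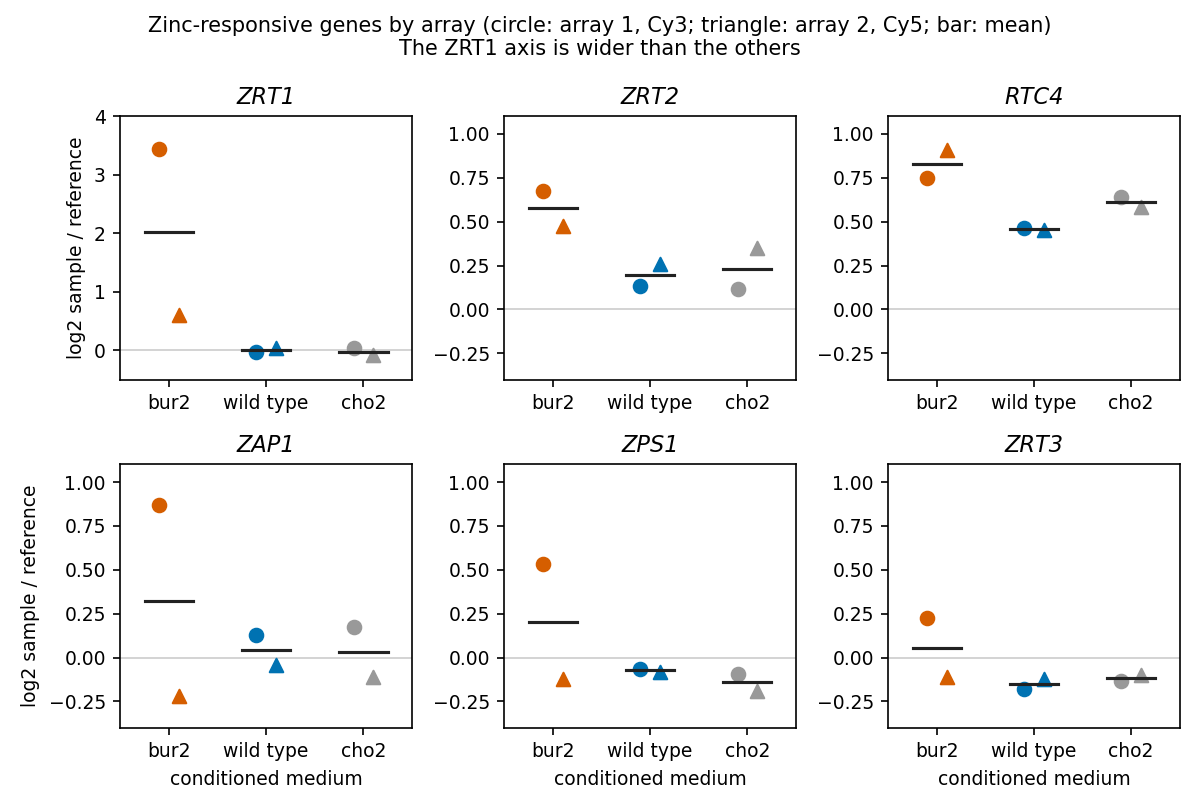
Log2 sample over reference of 6 zinc-responsive genes on each array of the second set, circles for array 1 (Cy3), triangles for array 2 (Cy5) and bars for means, with a wider axis for ZRT1. ZRT1, RTC4 and ZRT2 were higher than wild-type medium in both like-dye pairs, ZRT1 by 3.46 and 0.57, while ZAP1, ZPS1 and ZRT3 were apart from it in the first pair only.

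The 2 like-dye pairs gave partly separate pictures. Across genes, which are not independent replicates, arrays of like number correlated at r = 0.888 (array 1 of both media) and 0.896 (array 2), above the 2 arrays of the same medium (0.768 in bur2 medium and 0.708 in wild-type medium). The differences in the first pair correlated with those in the second at r = 0.224, or 0.111 without the Ty1 gag group and ZRT1. Only ZRT1 and GPI18 were past 1.7-fold in the first pair and 0 probes were in the second. GPI18, a mannosyltransferase gene of anchor synthesis, stood at -0.0099 and -0.025 against 1.15 and 0.020, and its value of -0.60 ± 0.27 rested on 1 of the 2 duplicate spots of wild-type array 1 (sample signal 12750 against 290). It was called without wild-type array 2 (-1.20, adjusted p 0.00678). The replication gene SLD2, which was not above background, was the 1 probe outside the Ty1 gag group called without bur2 array 1, and its value rested on 1 bright spot (2899 against 75 in the duplicate).

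**Figure D3:**
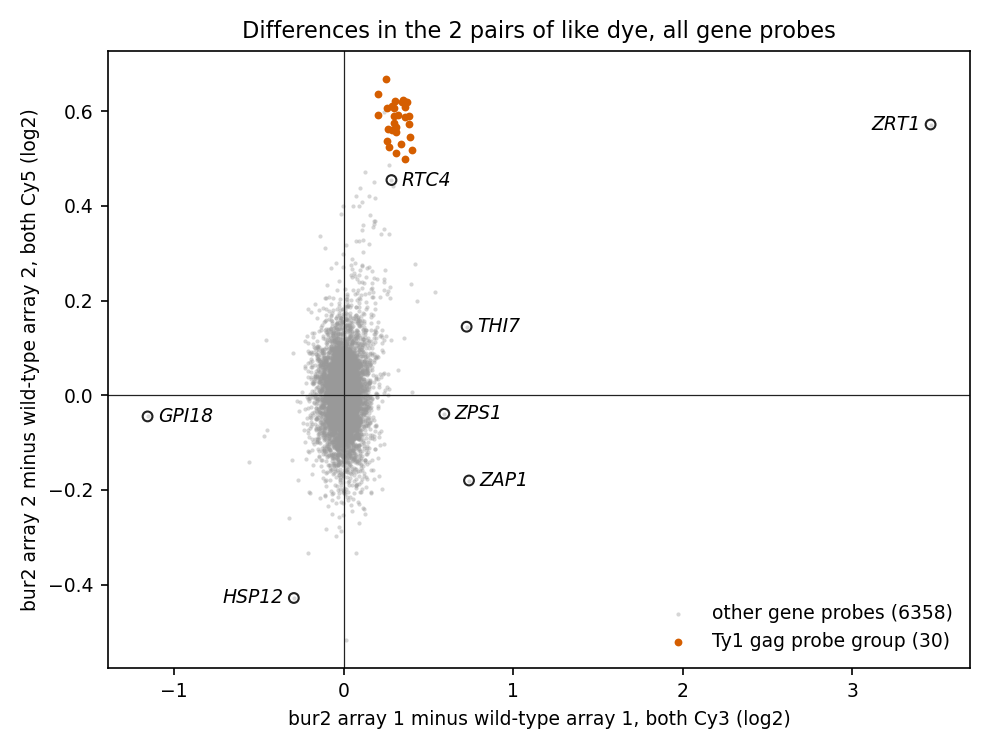
Difference between bur2 and wild-type medium in the array 1 pair (horizontal, log2) and in the array 2 pair (vertical, log2) for all 6388 gene probes, on axes of unequal scale. The Ty1 gag group sits apart from the cloud in both pairs, at medians of 0.31 and 0.59, whereas ZRT1 lies at 3.46 and 0.57 and GPI18 departs from 0 in the first pair only.

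Of the 12 named genes with the smallest p among those higher in bur2 medium, RTC4 and the 3 gag frames are given above. NPL3, an RNA-binding protein gene of mRNA export, had the smallest p of the table (0.000441) at a modest size. It stood at 0.20 and 0.17 against 0.011 and -0.022, a difference of 0.19 ± 0.034 with equal pairs (0.19 and 0.19). NPL3 was called with the mean of both wild-type media as control (0.22, adjusted p 0.0155). It is also deleted in another donor strain of the series, though not in the cells measured here. PTC2, a protein phosphatase gene, stood at 0.17 and 0.18 against -0.11 and -0.048 (0.25 ± 0.055). STH1, the ATPase gene of the RSC chromatin remodeller, stood at 0.27 and 0.35 against 0.089 and -0.063 (0.30 ± 0.074). Neither overlapped, and both were called in the fit of 4 arrays.

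QDR2, a multidrug transporter gene, stood at 0.065 and 0.23 in bur2 medium against -0.37 and 0.036 in wild-type medium (0.32 ± 0.077), with wild-type array 1 the lowest of the 4. YPS1, an aspartic protease gene of the cell surface, differed by 0.19 ± 0.042, and PMR1, the calcium and manganese pump gene of the Golgi, by 0.16 ± 0.039. WHI5, the repressor gene of cell cycle start, differed by 0.19 ± 0.048 at only 2.16 times background. YOR302W, the leader frame upstream of the arginine gene CPA1, differed by 0.14 ± 0.035. None of these overlapped between media.

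Of the 12 named genes with the smallest p among those lower in bur2 medium, 4 are given in full. LEU1, which encodes the isopropylmalate isomerase of leucine synthesis, stood at 0.13 and 0.085 against 0.46 and 0.34, a difference of -0.29 ± 0.071 that did not overlap and was called in the fit of 4 arrays. PDC1, the main pyruvate decarboxylase gene of fermentation and among the brightest probes at 425 times background, stood at -0.24 and -0.17 against -0.036 and -0.079 (-0.15 ± 0.043). RPL38, a large-subunit ribosomal protein gene, stood at -0.26 and -0.14 against -0.12 and -0.013 (-0.14 ± 0.034). CIN8, a kinesin motor gene of the spindle, stood at -0.020 and -0.046 against 0.16 and 0.069 (-0.15 ± 0.042). For all 4 genes both pairs were lower.

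The rest of the 12 lower genes differed by -0.11 to -0.20. They were YLR162W, ZEO1, FRQ1, VPS63, BNS1, RPL42B, MGT1 and the vacuolar proton pump subunit gene VMA10. RPL42B has a near-identical copy, RPL42A, so its probe may read both. Adjusted p values were 0.491 to 0.575 over the 12 higher genes and 0.516 to 0.988 over the 12 lower genes. Both pairs ran the same way in all 24, as did the difference from cho2 medium (adjusted p 0.519 to 0.749), but all 24 were picked by p value on these arrays.

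**Figure D4:**
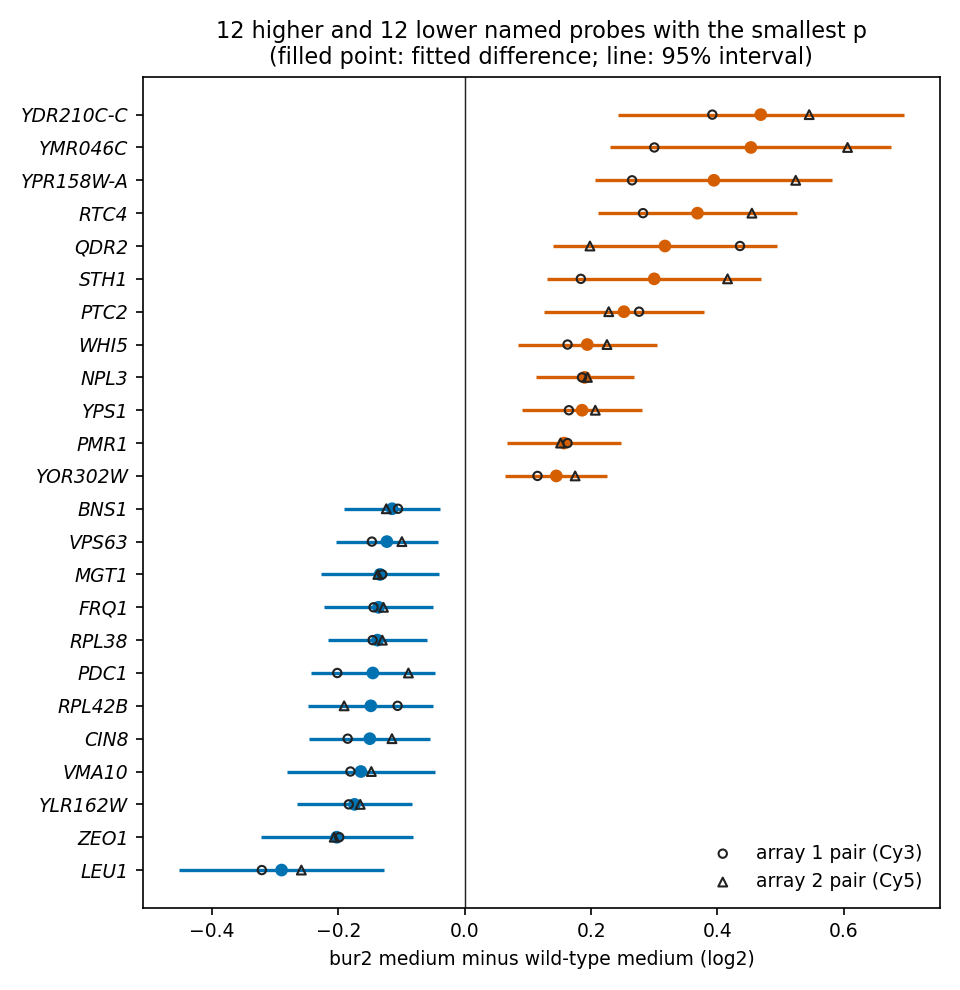
Difference between bur2 and wild-type medium (horizontal, log2) for the 12 higher and the 12 lower named probes with the smallest p, with lines for 95% intervals and open symbols for the 2 like-dye pairs. YDR210C-C is the highest at 0.47 and LEU1 the lowest at -0.29, and none passed the adjusted test.

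Of the lists of genes that respond to the surroundings, several leaned upwards by little. In the thiamine list 13 of 17 members were higher (48.7% over all probes) with a median of 0.024. Of the 17, 2 did not overlap above (9.83%), and 10 were above background on all 4 arrays. The thiamine transporter gene THI7 led the list at 0.80 and 0.46 against 0.072 and 0.31 (0.44 ± 0.12). THI7 was called with duplicate spots kept apart (adjusted p 0.00291). It was higher on both bur2 arrays, and as with ZRT1 its first pair (0.73) was farther apart than its second (0.14). In the pheromone response list 21 of 24 were higher, with a median of 0.031, 1 member at an unadjusted p under 0.05 (2.50%) and 13 not overlapping above, against 9.83% over all probes. Its smallest p belonged to SST2, which encodes the regulator that desensitises the pathway, at 0.38 and 0.36 against 0.25 and 0.26 (0.12 ± 0.047). The G protein beta subunit gene STE4 differed by 0.12 ± 0.054. The 4 alpha-specific genes were all higher, with a median of 0.14. They included MF(ALPHA)2, a pheromone gene, at 0.79 and 0.90 against 0.62 and 0.69 (0.19 ± 0.087), and the agglutinin gene SAG1 at 1.11 and 1.09 against 0.89 and 0.97 (0.17 ± 0.089). MF(ALPHA)1, the other pheromone gene, overlapped at 0.11 and 0.19 against 0.22 and 0.069.

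Cell surface genes were split as well. In the cell wall stress list 7 of 10 were higher (48.7% over all probes), with a median of 0.055, 2 at an unadjusted p under 0.05 (2.50%) and 6 not overlapping above (9.83%). HSP150, a secreted cell wall glycoprotein gene, stood at 0.36 and 0.36 against 0.10 and 0.14 (0.23 ± 0.073) and was called in the fit of 4 arrays. The wall protein genes SED1 and CWP2 differed by 0.13 and -0.13, in opposite directions. The PAU and DAN genes are a large family of wall mannoproteins made under low oxygen whose members share sequence. Of these, 18 of 22 were higher (48.7% over all probes) with a median of 0.034, led by TIR2 at 0.11. Of the 22, 7 did not overlap above (9.83%).

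Amino acid genes differed in both directions. The branched-chain list had 8 of 13 higher (48.7% over all probes) and a median of 0.041. Its 3 members at an unadjusted p under 0.05 were nevertheless lower (1.28% over all probes). They were LEU1, the mitochondrial carrier gene OAC1 (-0.19) and the transaminase gene BAT2 (-0.12), of which OAC1 and LEU1 are targets of the leucine pathway regulator Leu3. ILV5, an enzyme gene of the shared pathway, stood at 0.36 and 0.16 against 0.12 and 0.11 (0.14 ± 0.077). BAT2 turned to 0.011 with both wild-type media as the control. In the adenine and one-carbon list 10 of 15 were lower (51.3% over all probes) with a median of -0.034. The folate enzyme gene MTD1 led it at 0.090 and 0.056 against 0.20 and 0.17 (-0.11).

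The iron list was evenly split against the control of the same set, with 13 higher and 13 lower and a median of -0.010. FTR1, the iron permease gene, stood at -1.06 and -1.01 against -0.93 and -0.87 (-0.13 ± 0.057), and the vacuolar metal transporter gene SMF3 differed by -0.10. Against the mean of both wild-type media of the series the list median was -0.148 and SIT1, a siderophore transporter gene, reached -0.86. SIT1 differed by -0.098 within the set, at mean levels of -2.04 in bur2 medium and -1.94 in wild-type medium. The low iron gene levels were thus common to both media of this set. Copper, phosphate, sulfur, nitrogen, glucose and biotin lists had medians between -0.032 and 0.0039.

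The stress response and mitochondrially encoded lists had more members lower than higher. In the stress-induced list 30 of 40 were lower (51.3% over all probes) with a median of -0.051, 1 was lower at an unadjusted p under 0.05 (1.28%) and 13 did not overlap below, against 9.22% over all probes. HSP12, a small membrane-stabilising heat shock protein gene, stood at 0.55 and 0.55 against 0.85 and 0.97 (-0.36 ± 0.30), and HOR7, a gene induced by high osmolarity, at 0.41 and 0.20 against 0.63 and 0.53 (-0.27 ± 0.11). Neither overlapped, and both were called in the fit of 4 arrays only, where the SE of HSP12 was 0.049. With both wild-type media as control the list median turned to 0.041.

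Of the 19 mitochondrially encoded probes, 18 were lower (51.3% over all probes), 5 of them at an unadjusted p under 0.05 (1.28%) and 10 without overlap (9.22%), and the list median was -0.062. The median was -0.11 in the first pair and -0.031 in the second, and -0.018 without bur2 array 1. The 7 above background on all 4 arrays ran from -0.35 to -0.11, and 5 of the 7 ran the same way in both pairs. OLI1, which encodes an ATP synthase subunit, stood at 0.19 and 0.61 against 0.75 and 0.75 (-0.35 ± 0.13). The intron frames AI5_ALPHA and AI4 of the cytochrome oxidase gene COX1 stood at 0.062 and 0.29 against 0.53 and 0.37 (-0.28 ± 0.13), and at 0.081 and 0.19 against 0.53 and 0.26 (-0.26 ± 0.11). ATP8 stood at -0.23 and -0.12 against 0.078 and 0.016 (-0.22 ± 0.083). These 4 were lower in both pairs, and the first pair was the farther apart in each. Reading frames of the mitochondrial genome lie on shared transcripts, so their values are not independent.

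Growth-related lists were near 0. Cytosolic ribosomal protein genes were higher in 54 and lower in 74 of 128, with a median of -0.014, and mitochondrial ribosomal protein genes higher in 26 and lower in 40 of 66. Ribosome biogenesis genes had 32 higher and 34 lower, with a median of -0.0081, and the 60S maturation gene TIF6 at 0.23 ± 0.064 led them. Proteasome genes were split 17 to 17 with a median of 0.0011. In the G1/S list 17 of 24 were lower (51.3% over all probes) with a median of -0.024. HHT1 of the core histone list differed by -0.12 ± 0.044, and the peroxidase gene GPX2 of the oxidative stress list by -0.15 ± 0.052. The ergosterol list was split 10 to 10, with ERG6 at 0.12 and ERG1 at -0.097.

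The genes of the Bur1-Bur2 kinase and of transcription elongation showed no called difference. Of 13 probes 5 were higher and 8 lower, none at an unadjusted p under 0.05, with a median of -0.0077 and a range of -0.10 to 0.045. SGV1, the gene of the Bur1 kinase itself, stood at 0.10 and 0.050 against 0.093 and -0.0050 (0.032 ± 0.035). The other genes deleted in donor strains, CBF1 and CHO2, differed by 0.016 and 0.022.

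**Figure D5:**
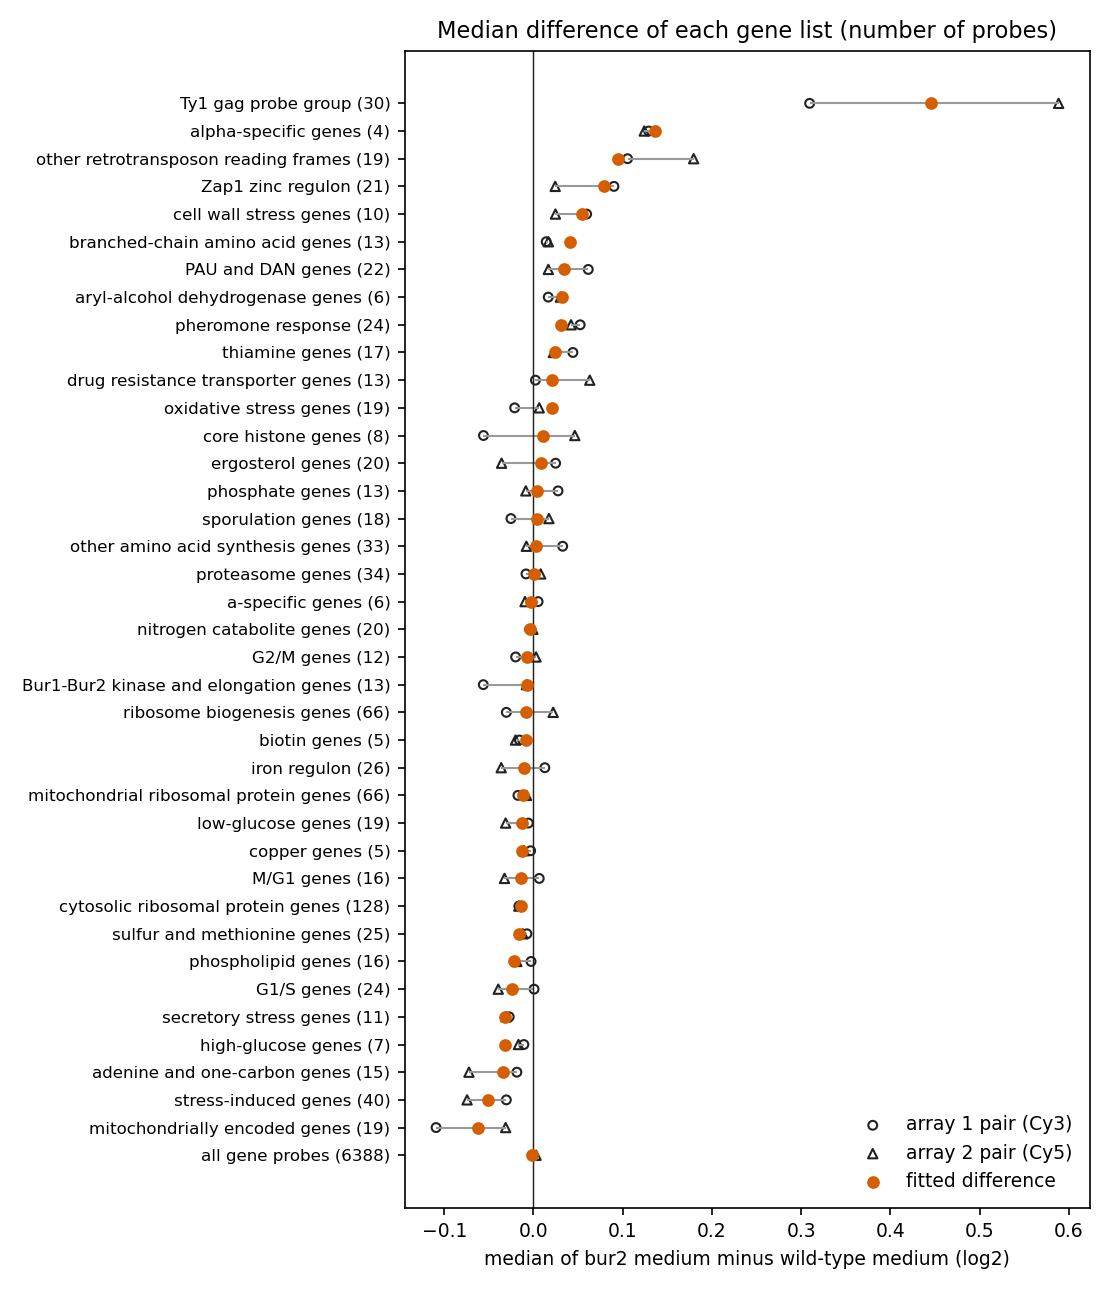
Median difference between bur2 and wild-type medium (horizontal, log2) of each gene list, with its number of probes in brackets and open symbols for the medians of the 2 like-dye pairs. The Ty1 gag group stands at 0.446 and the alpha-specific genes at 0.14, while the mitochondrially encoded genes are the lowest at -0.062.

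Against cho2 medium, the other mutant medium of the set, limma likewise called 0 probes (0.00%), with a smallest adjusted p of 0.519. Before adjustment, 317 probes were higher (4.96%) and 215 lower (3.37%) at a p under 0.05. ZRT1 differed by 2.04 (adjusted p 0.531), THI7 by 0.63, HSP150 by 0.28 and MTD1 by -0.24. In the normalised table that the authors deposited, where the column of cho2 array 1 ran opposite to its scanner values (r = -0.912) and was turned, limma called 3 probes as higher than in cho2 medium, the retrotransposon frames YER138W-A (0.41) and YDR210C-D (0.42) and 1 probe without a symbol, each at an adjusted p of 0.0298. These calls depend on that turn.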

How the data were processed

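The authors deposited scanner output for each of 12 two-colour spotted arrays, with intensity as the mean signal of Cy5 and Cy3 in each of 15552 spots, of which 12776 held 6388 gene probes in duplicate. A table of log2 ratios was deposited as well, normalised with limma 2.12.0 (loess per print tip, span 0.4, no background subtraction, dye-bias correction), which served as an alternative, with the column of cho2 array 1 turned after it ran opposite to its array (r = -0.912). A further table of the authors' own fold changes and p values was not used. Here intensities were background-corrected (normexp, offset 50), normalised per array by loess (span 0.3), turned to sample over reference and averaged over duplicates. Limma 3.58.1 in R 4.3.3 fitted 6 group means and a dye term over 12 arrays (5 residual degrees of freedom), two-sided, with Benjamini-Hochberg adjustment over 6388 probes. Probes at or under 2 times background in both media were given no fold. Named genes were the 12 higher and 12 lower with the smallest p, the 8 highest and 8 lowest, all zinc and Bur1-Bur2 genes and up to 4 of each other list. Members and lists were chosen with earlier results of these data known. A simulation to test the fit planted log2 changes of 1 and 2, up or down, with independent errors. It did not cover differences as small as most of those given here. Alternatives varied background, normalisation, filters, dye term, blocks, controls and arrays left out. Arrays of like number share a dye, and their deviations from the group means correlated at r = 0.662, which the labels do not tie to a shared culture. Gene names came from the files for 5326 probes. The genome build and probe sequences are not given in the sources used here.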

Additional observations from a re-analysis of the deposited data

How the results depend on the processing

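The call of 0 probes held under every other processing run here except with duplicate spots kept apart (45 calls), with 4 arrays (59), and with the mean of both wild-type media as control (57, chosen after seeing the data); it ran from 0 to 25 with 1 array left out. The lone array of a medium was then assumed to vary like the others. Probes higher at an unadjusted p under 0.05 (160) numbered 73 without the dye term, 304 with the 6 arrays of the set, 294 with 4 arrays, 327 with all 4 wild-type arrays, 366 with the mean of both wild-type media, and 76 to 184 with 1 array left out. Probes lower (82) numbered 54 without background subtraction, 13 with median centring, 47 without the 25% dimmest probes, 17 without the dye term, 209 with 6 arrays, 172 with 4, 245 with all 4 wild-type arrays, 328 with the mean of both, and 47 to 139 with 1 array left out. With array number as a replicate block, 0 probes were called (smallest adjusted p 0.215) and 149 were lower at an unadjusted p under 0.05; the pairing by number is also a pairing by dye. Probes not overlapping numbered 336 above and 287 below with all 4 wild-type arrays, and 96 below with median centring. The cho2 comparison gave 3 calls with the deposited table. The cause of these shifts was not tested.

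The Ty1 gag median stayed between 0.27 and 0.62 under all settings. Reversals included values whose media did not overlap (YDR210C-D, BAT2). The stress list median turned from -0.051 to 0.041 with both wild-type media as control. Per-print-tip loess turned YDR210C-D to -0.15, RPS11A to -0.16 and MSC2 to -0.010. Median centring turned ZRC1 to 0.027, IZH1 to 0.062 and IZH2 to 0.012. The deposited table turned MSC2 to -0.027 and ADH4 to -0.017. Both pooled wild-type controls turned SPI1 to 0.092, BAT2 to 0.011, IZH1 to 0.00068, YGR109W-A to -0.0051 and MNT2 to -0.00026. With 1 array left out, ZRC1 ranged from -0.086 to 0.017, ZRG17 from -0.030 to 0.089, MSC2 from -0.0013 to 0.016, ZAP1 from -0.16 to 0.72, ADH4 from -0.079 to 0.093, ZPS1 from -0.054 to 0.61, IZH1 from -0.036 to 0.030, MNT2 from -0.031 to 0.054, ADH1 from -0.039 to 0.10, BUR2 from -0.051 to 0.12 and CBF1 from -0.017 to 0.048.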
